A study of Mus musculus with 6 samples.

Results

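A set of 10 transcription factor genes that mark the nuclei of the hypothalamus, or that pattern it during development, was followed in RNA from mouse hypothalamus: Nkx2-1, Nkx2-2, Nkx2-4, Sim1, Otp, Pou3f2, Nr5a1, Fezf1, Isl1 and Tbx3. They were chosen by name, as factors of known nuclei, to show how evenly the region was sampled from mouse to mouse. All 10 had a row among the 24513 genes counted, and all 10 passed the filter on low counts, as did 15894 genes in all. The study sequenced total RNA of whole hypothalamus from 3 wild-type mice (WT) and from 3 mice of the NS-DADm line, both on the C57BL/6 strain and aged 3 to 4 months, with 1 mouse per library. As known for this line rather than from the labels, NS-DADm mice carry germline mutations, in every cell of the body, in the domain through which the nuclear receptor corepressors NCOR1 and SMRT activate the histone deacetylase HDAC3. Neither group is described as having received a treatment. Libraries held 24.2 to 27.6 M reads on genes (M, 1e6), and levels are given as reads per 1e6 (CPM) after scaling of library sizes.

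The hypothalamus is built from small nuclei that each depend on a few transcription factors. SIM1, OTP and POU3F2 specify the neuroendocrine neurons of the paraventricular nucleus, which release oxytocin, vasopressin and corticotropin-releasing hormone. NR5A1 (steroidogenic factor 1) and FEZF1 mark the ventromedial nucleus, ISL1 and TBX3 act in arcuate neurons that control feeding, and the NKX2 homeodomain proteins define the ventral territory from which much of the tuberal hypothalamus arises. The transcript level of a factor in whole-tissue RNA depends on how much of the tissue making it was sampled. It depends as well on how much each cell made. Some of these factors are also made elsewhere, as given below, so their levels do not measure the content of the named nucleus alone. In bulk RNA, fewer cells of a type and less RNA per cell cannot be told apart.

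Sequence that the 10 genes share with other genes bears on how well reads could be assigned. On the same strand, the longest identical run between any of the 10 and a transcript of another gene was 42 bases, between Nkx2-1 and Nkx2-9. A read longer than such a run covers at least 1 differing base, but the read length is not given in the sources used here. Exons of the antisense gene Nkx2-2os cover 278 bases of Nkx2-2 exons (9.67%), and Nkx2-2os had 25 to 48 counts per library. Tbx3os1 covers 115 bases of Tbx3 exons (1.74%). Whether the counting used strand is not given, so reads in these stretches may be misplaced.

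Per kilobase of exon, Nkx2-1 was the most abundant of the 10 factors and Nkx2-4 the least. Nkx2-1 measured 10.2 ± 0.78 reads per kilobase per 1e6 reads (RPKM, mean ± SD over the 6 libraries) and Nkx2-4 measured 1.59 ± 0.14 RPKM. Between them came Fezf1 at 8.12 ± 1.2, Pou3f2 at 6.94 ± 0.51, Isl1 at 6.31 ± 0.64 and Otp at 6.26 ± 0.64 RPKM. A lower group followed, with Nkx2-2 at 2.92 ± 0.25, Nr5a1 at 2.83 ± 0.68, Sim1 at 2.80 ± 0.41 and Tbx3 at 1.78 ± 0.11 RPKM. Isl1 was above Otp in only 4 of 6 libraries, Nkx2-2 above Nr5a1 in 3 and Nr5a1 above Sim1 in 4, so these neighbours were not separated by level. The ranges of the 6 libraries did not overlap between Otp and Nkx2-2, nor between Sim1 and Tbx3. With the length of the longest transcript in place of all merged exons, Isl1 moved from rank 4 to rank 2. Its mean was then 9.92 RPKM, close to the 10.3 RPKM of Nkx2-1, so the top rank was less clear by that length.

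Some libraries stood apart in RNA of neighbouring tissue. Thalamus markers were higher in the 3 WT than in the 3 NS-DADm libraries and highest in WT 1, and anterior pituitary markers were highest in NS-DADm 2. Fold changes of the factors are given below with and without them.

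None of the 10 factors passed the test for a difference between NS-DADm and WT hypothalamus (edgeR quasi-likelihood test, Benjamini-Hochberg (BH) adjusted p under 0.05 over all 15894 genes). In the same comparison 104 genes passed, which is 0.654% of those tested. The DESeq2 and limma voom tests also called 0 of the 10. Without adjustment, 2 of the 10 had a p under 0.05, Nr5a1 and Otp, both higher in NS-DADm mice. Over all tested genes 10.9% had such a p in either direction and 4.4% had one with a higher level in NS-DADm mice. Of the 10, 7 had fitted log2 fold changes above 0 and 3 below, with a median of 0.12, against 51.6% above 0 and a median of 0.004 over all tested genes. The fitted log2 fold changes ran from -0.089 for Nkx2-2 to 0.45 for Nr5a1.

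**Figure D1:**
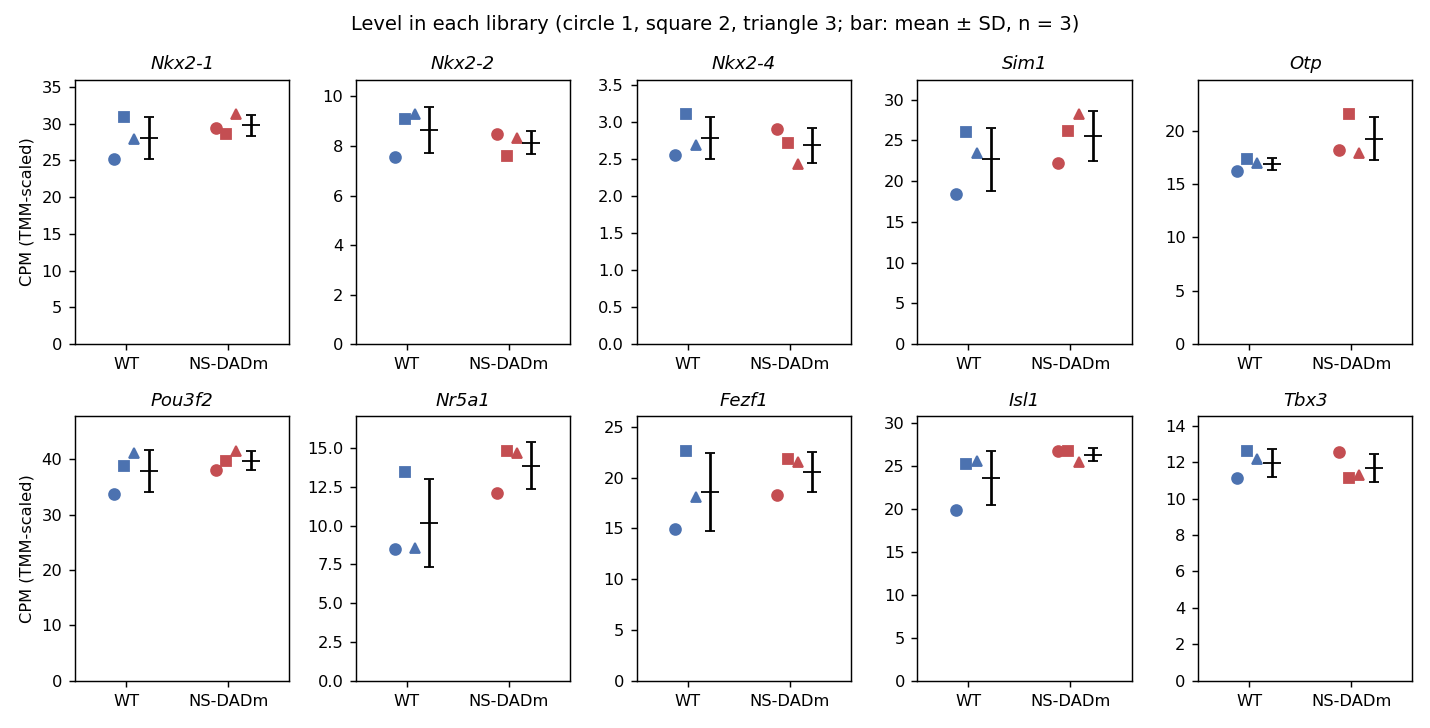
Level of each of the 10 factors in each library, in CPM (vertical axis, from 0), for WT (blue) and NS-DADm (red), with the mean and SD of the 3 libraries of a group. WT 1 is the lowest WT point in every panel, and the groups are separate only for Otp.

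Sim1, Otp and Pou3f2 of the paraventricular nucleus had fitted values above 0 in NS-DADm mice, none past the threshold. Sim1 encodes a bHLH-PAS factor required for paraventricular neurons to form (mm10, as for all positions given, chromosome 10, 50894754 to 50989152, plus strand). It measured 18.4, 26.1 and 23.5 CPM across WT 1, 2 and 3, against 22.2, 26.2 and 28.2 CPM across NS-DADm 1, 2 and 3. WT 1 was low and the groups overlapped (log2 fold change 0.17 ± 0.13 SE, 95% interval -0.12 to 0.46; edgeR, BH adjusted p = 0.71).

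Otp encodes a homeodomain factor needed for the same neurons and for somatostatin cells beside the ventricle (chromosome 13, 94875602 to 94885130, plus strand). It measured 16.2, 17.3 and 17.0 CPM across WT 1, 2 and 3, against 18.2, 21.5 and 18.0 CPM across NS-DADm 1, 2 and 3. All 3 NS-DADm libraries lay above all 3 WT libraries, with NS-DADm 2 highest. This was the only one of the 10 factors, 10% of them, whose groups did not overlap, and 16.8% of all tested genes did not, 7.86% with NS-DADm above WT. The fitted difference was a 1.14-fold higher level (log2 0.19 ± 0.085 SE, 95% interval 0.0096 to 0.38; edgeR, unadjusted p = 0.041, BH adjusted p = 0.43). Without NS-DADm 2 it was log2 0.10 (edgeR, unadjusted p = 0.24, BH adjusted p = 0.77).

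Pou3f2, also called Brn2, encodes a POU factor that acts downstream of SIM1 in the paraventricular nucleus and is also made in other brain regions (chromosome 4, 22482780 to 22488366, a single exon on the minus strand). It measured 33.6, 38.7 and 41.2 CPM across WT 1, 2 and 3, against 38.0, 39.7 and 41.5 CPM across NS-DADm 1, 2 and 3. The groups overlapped, and WT 1 again was lowest (log2 0.072 ± 0.075 SE, 95% interval -0.089 to 0.23; edgeR, BH adjusted p = 0.81).

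The ventromedial factor Nr5a1 had the largest fitted difference of the 10 and the widest spread among WT mice. Nr5a1 encodes an orphan nuclear receptor needed for the ventromedial nucleus to form (chromosome 2, 38692656 to 38714542, minus strand). Its level was 8.48, 13.4 and 8.56 CPM in WT 1, 2 and 3, from 232, 368 and 226 reads, and 12.1, 14.8 and 14.7 CPM in NS-DADm 1, 2 and 3, from 296, 409 and 386 reads. WT 1 and WT 3 were low, whereas WT 2 lay among the NS-DADm libraries, so the groups overlapped. Group means were 10.2 ± 2.8 CPM for WT against 13.9 ± 1.5 CPM for NS-DADm mice (SD, n = 3 each). The fitted difference was 1.36-fold (log2 0.45 ± 0.18 SE, 95% interval 0.046 to 0.85; edgeR, unadjusted p = 0.033, BH adjusted p = 0.40). The WT coefficient of variation was 27.99%, against 5.59% from counting alone at the mean count of all 6 libraries. The call depended on the fit, since Nr5a1 passed the threshold without WT 2 (log2 0.70; edgeR, BH adjusted p = 0.0071) and, with all 6 libraries, with the replicate number as a block (log2 0.46; edgeR, BH adjusted p = 0.046). With each of the other 5 libraries left out, Nr5a1 did not pass and its log2 fold change was 0.34 to 0.54.

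Nr5a1 is also made by the gonadotrope cells of the anterior pituitary, and pituitary markers differed between the libraries. All 8 tested pituitary markers of a list of 12 had fitted values above 0, against 51.6% of all tested genes. Of these, 0 passed the threshold in edgeR or limma voom, 1 in DESeq2 and 1 at an unadjusted p under 0.05 in edgeR. The 12 markers summed to 40.7 to 112 CPM in WT and 201 to 2023 CPM in NS-DADm libraries. Most of each sum was Gh, the growth hormone gene, which ran from 30.5 to 96.0 CPM across WT mice. Among NS-DADm mice Gh ranged between 167 and 1810 CPM. The sums therefore do not measure gonadotrope RNA. Lhb and Fshb encode subunits of the gonadotrope hormones and were chosen after their values were seen. Across WT mice Lhb ran from 8 to 15 counts, with Fshb from 7 to 13. NS-DADm 3 lay within both ranges, at 8 for Lhb and 9 for Fshb. NS-DADm 1 lay above them, at 17 for Lhb and 49 for Fshb, while NS-DADm 2 was highest, with 100 and 153. Cga, a further hormone subunit gene among the 12 and also named after its values were seen, differed from these for NS-DADm 3. It ran from 37 to 57 counts across WT mice, and NS-DADm 1, 2 and 3 were all above that, at 195, 658 and 60. Nr5a1 stood at 12.1 CPM for NS-DADm 1, with NS-DADm 2 at 14.8 and NS-DADm 3 at 14.7 CPM. The part of pituitary RNA in these Nr5a1 levels was not tested. Without NS-DADm 2 the log2 fold change of Nr5a1 was 0.40, and without WT 1 and NS-DADm 2 together it was 0.28.

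Fezf1 encodes a zinc-finger factor of the ventromedial nucleus and of olfactory neurons (chromosome 6, 23245044 to 23248362, minus strand). It measured 14.95, 22.6 and 18.1 CPM across WT 1, 2 and 3, against 18.3, 21.9 and 21.5 CPM across NS-DADm 1, 2 and 3. WT 2 was the highest of all 6 and WT 1 the lowest, so the WT range enclosed the NS-DADm range (log2 0.15 ± 0.14 SE, 95% interval -0.16 to 0.46; edgeR, BH adjusted p = 0.79). The pair of ventromedial factors was compared within each library. The log2 ratio of Nr5a1 to Fezf1 was -0.82, -0.75 and -1.08 across WT 1, 2 and 3, against -0.59, -0.56 and -0.55 across NS-DADm 1, 2 and 3. The groups did not overlap for this ratio, with a mean difference of 0.31, and the 3 NS-DADm libraries were within 0.045 of each other.

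Neither arcuate factor, Isl1 or Tbx3, passed the threshold. Isl1 encodes a LIM homeodomain factor that drives Pomc in arcuate neurons and is also made in the pituitary and striatum (chromosome 13, 116298281 to 116309689, minus strand). It measured 19.9, 25.3 and 25.6 CPM across WT 1, 2 and 3, against 26.8, 26.8 and 25.5 CPM across NS-DADm 1, 2 and 3. WT 1 stood low, and the other 5 libraries lay close together (log2 0.16 ± 0.089 SE, 95% interval -0.035 to 0.35; edgeR, BH adjusted p = 0.58). Without WT 1 the log2 fold change was 0.054. NS-DADm 2, the library with the highest pituitary sum, and NS-DADm 1 were both at 26.8 CPM, and the part of pituitary RNA in the Isl1 values was not tested.

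Tbx3 encodes a T-box repressor of arcuate neurons and tanycytes, the ventricle-lining glia (chromosome 5, 119670669 to 119684724, plus strand). It varied least of the 10 across the libraries, with 11.1, 12.6 and 12.2 CPM across WT 1, 2 and 3, against 12.6, 11.1 and 11.3 CPM across NS-DADm 1, 2 and 3. The highest library was only 1.13-fold above the lowest. The WT coefficient of variation of 6.40% was near the 5.65% set by counting at the mean count of all 6 libraries (log2 -0.037 ± 0.090 SE, 95% interval -0.23 to 0.16; edgeR, BH adjusted p = 0.94). The log2 ratio of Isl1 to Tbx3 was 0.84, 1.00 and 1.07 across WT 1, 2 and 3, against 1.09, 1.26 and 1.17 across NS-DADm 1, 2 and 3, so the groups were separate by a narrow margin.

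Among the NKX2 factors, Nkx2-1 was slightly above and the other two slightly below WT in the fit, none past the threshold. Nkx2-1 encodes the homeodomain protein that sets up the ventral hypothalamus (chromosome 12, 56531958 to 56536908, minus strand), and basal telencephalon also makes it. It measured 25.2, 30.9 and 27.95 CPM across WT 1, 2 and 3, against 29.4, 28.6 and 31.3 CPM across NS-DADm 1, 2 and 3. The WT range took in 2 of the 3 NS-DADm libraries (log2 0.086 ± 0.078 SE, 95% interval -0.082 to 0.25; edgeR, BH adjusted p = 0.77). Of 8 markers of striatum and basal telencephalon, 0 passed the threshold in edgeR, DESeq2 or limma voom (1 at an unadjusted p under 0.05 in edgeR) and 4 had fitted values above 0. Their mean log2 CPM was highest in NS-DADm 1 (4.18) and WT 1 (4.08), where Nkx2-1 was intermediate and lowest.

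Nkx2-2 marks the boundary of the ventral territory in development, and oligodendrocyte precursors make it in the adult brain (chromosome 2, 147177546 to 147194243, minus strand). It measured 7.57, 9.10 and 9.28 CPM across WT 1, 2 and 3, against 8.47, 7.60 and 8.33 CPM across NS-DADm 1, 2 and 3. WT 1 and NS-DADm 2 were lowest, and the groups overlapped (log2 -0.089 ± 0.11 SE, 95% interval -0.32 to 0.14; edgeR, BH adjusted p = 0.84). Of 9 markers of oligodendrocyte precursors and newly formed oligodendrocytes, 0 passed the threshold in the same 3 tools, 1 had an unadjusted p under 0.05 in edgeR, and 7 had fitted values below 0 (median log2 -0.060). Their sums were 444 to 456 CPM in WT and 416 to 460 CPM in NS-DADm libraries, with no marker at 0. Their mean log2 CPM ran from 4.76 to 4.81 across WT libraries and from 4.66 to 4.67 across those of NS-DADm mice, with no overlap, and their part in the Nkx2-2 values was not tested.

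Nkx2-4, a paralog of Nkx2-1, was the least abundant of the 10 (chromosome 2, 147083316 to 147085445, minus strand). It measured 2.56, 3.11 and 2.69 CPM across WT 1, 2 and 3, against 2.90, 2.72 and 2.43 CPM across NS-DADm 1, 2 and 3, from 64 to 85 reads per library. The groups overlapped. The spread within each group was below the 11.7% that counting alone gives at the mean count of all 6 libraries, so a difference of this size was not detectable at this depth (log2 -0.054 ± 0.15 SE, 95% interval -0.39 to 0.28; edgeR, BH adjusted p = 0.94). The log2 ratio of Nkx2-1 to Nkx2-2 was 1.73, 1.76 and 1.59 in WT, below the 1.79, 1.91 and 1.91 of the NS-DADm libraries.

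**Figure D2:**
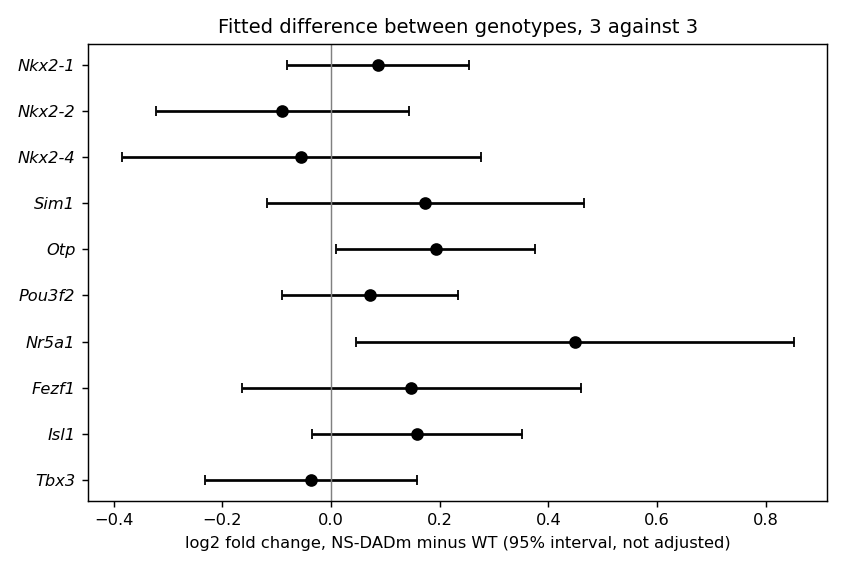
Fitted log2 fold change of each of the 10 factors (horizontal axis, NS-DADm minus WT) with its 95% interval, which is not adjusted for the number of genes. Only the intervals of Otp and Nr5a1 leave out 0, and neither passes after adjustment.

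Most of the lowest values were in 1 library. All 10 factors were lower in WT 1 than in WT 2 and WT 3, and for 9 of the 10 WT 1 was the lowest of all 6 libraries, the exception being Nkx2-4, lowest in NS-DADm 3. Over all tested genes, 25.2% were lowest in WT 1. The factors' median distance from the mean of the 6 libraries was -0.20 in WT 1 and 0.11 in WT 2 on the log2 scale. Nr5a1 was farthest below at -0.46, and Tbx3 and Nkx2-4 stayed nearest at -0.09. WT 2 was the highest WT library for 7 of the 10 and WT 3 for 3. In NS-DADm mice no library was lowest throughout, with NS-DADm 1, 2 and 3 lowest for 4, 3 and 3 factors.

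Markers of thalamus, the region above the hypothalamus, had the opposite pattern in these libraries. All 13 listed thalamus markers were highest in WT 1 and, among WT mice, lowest in WT 2. All 13 also had lower values in NS-DADm than in WT mice, with no overlap. In either direction, 16.8% of all tested genes did not overlap. The list was chosen with earlier results of these data known, so this is not an independent result. Of the 13, 5 passed the threshold, against 0.654% of all tested genes: Lef1, Rgs16, Plekhg1, Plcb4 and Slitrk6. With WT 1, 2 or 3 left out the count was 4, 12 or 1. With NS-DADm 1, 2 or 3 left out it was 2, 0 or 2. DESeq2 called 12 with all 6 libraries and limma voom 4. Their summed level was 578 to 936 CPM in WT and 345 to 388 CPM in NS-DADm libraries, with none at 0. The mean log2 CPM of the 13 was 5.75, 4.85 and 5.39 across WT 1, 2 and 3, against 4.13, 3.72 and 4.05 across NS-DADm 1, 2 and 3. The mean log2 CPM of the 10 hypothalamic factors was 3.71, 4.05 and 3.91 across WT 1, 2 and 3, against 3.97, 4.03 and 4.02 across NS-DADm 1, 2 and 3. The WT library with the least thalamus signal, WT 2, was thus at the level of the NS-DADm libraries for the factors.

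**Figure D3:**
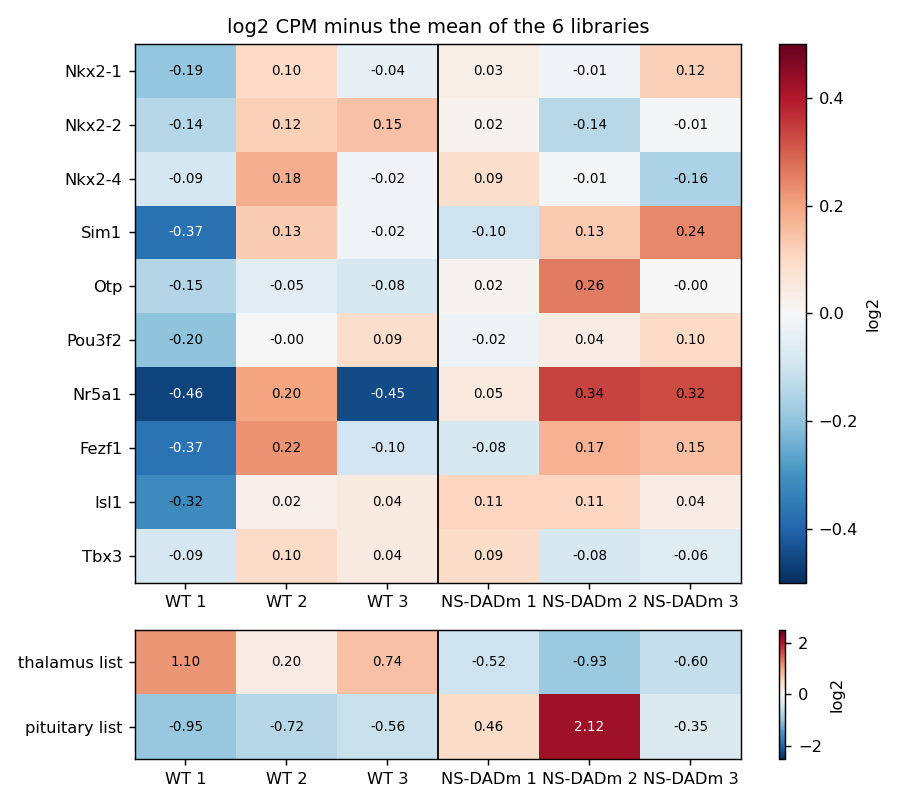
Distance of each library from the mean of all 6, in log2 CPM, for the 10 factors (upper panel) and for the mean of the thalamus and pituitary marker lists (lower panel, wider colour scale). WT 1 is below 0 in all 10 rows and at 1.10 for thalamus, and NS-DADm 2 is at 2.12 for pituitary.

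With the thalamus mean as a covariate, 0 of the 10 factors passed the threshold and the sign of 7 turned. Nr5a1 had a log2 fold change of -0.52, Fezf1 of -0.68, Sim1 of -0.47, Isl1 of -0.23, Nkx2-1 of -0.22, Pou3f2 of -0.15 and Otp of -0.094 in that fit, against 0.45, 0.15, 0.17, 0.16, 0.086, 0.072 and 0.19 without it. Fezf1 had the smallest unadjusted p there, 0.0026 (edgeR, BH adjusted p = 0.30). The thalamus means of the groups did not overlap, so this fit compared the genotypes at a thalamus level outside the range of at least 1 group. With these 6 libraries, thalamus signal and genotype cannot be told apart. Without WT 1 the log2 fold changes of Sim1, Pou3f2, Fezf1, Isl1 and Nkx2-1 were 0.048, -0.0026, 0.018, 0.054 and 0.018, closer to 0 than with all 6 libraries. Otp and Nr5a1 were at 0.17 and 0.34. Those of Nkx2-2, Nkx2-4 and Tbx3 were -0.17, -0.11 and -0.084, farther from 0. Without NS-DADm 2, Nkx2-2 was at -0.042 and Tbx3 at -0.0045, against -0.089 and -0.037 with all 6.

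**Figure D4:**
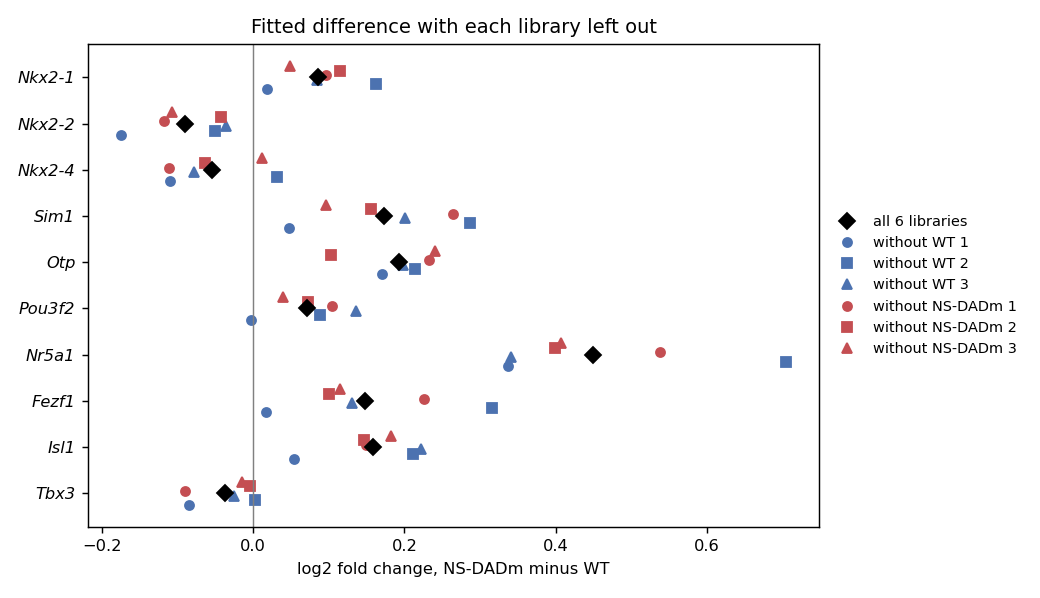
Fitted log2 fold change (horizontal axis, NS-DADm minus WT) of each factor with all 6 libraries (black diamonds) and with each WT (blue) or NS-DADm (red) library left out. Leaving out WT 1 moves Sim1, Pou3f2, Fezf1, Isl1 and Nkx2-1 towards 0 and Nkx2-2, Nkx2-4 and Tbx3 away from it, and leaving out WT 2 moves Nr5a1 to 0.70.

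Within a library, the factor means of the 3 nuclei were set against each other, and for all 3 ratios the groups overlapped. Mean log2 differences between NS-DADm and WT were -0.17, 0.082 and 0.25 for the 3 ratios below. Their ranges were 0.46, 0.013 and 0.47 within WT and 0.11, 0.27 and 0.37 within NS-DADm. A range of 3 libraries is often wider than a difference of group means, so this comparison cannot show balance. The mean log2 level of Sim1, Otp and Pou3f2 exceeded that of Nr5a1 and Fezf1 by 0.94, 0.57 and 1.03 across WT 1, 2 and 3, against 0.74, 0.65 and 0.64 across NS-DADm 1, 2 and 3. The WT libraries spread wider than the NS-DADm libraries here and enclosed them. The paraventricular mean exceeded that of Isl1 and Tbx3 by 0.54, 0.54 and 0.53 in WT, nearly the same in each mouse, and by 0.44, 0.71 and 0.70 in NS-DADm libraries. The ventromedial mean differed from the arcuate mean by -0.40, -0.03 and -0.50 across WT 1, 2 and 3, against -0.30, 0.06 and 0.07 across NS-DADm 1, 2 and 3, and the groups overlapped. Of 26 such ratios, 23 between single factors and 3 between nucleus means, 4 had groups that did not overlap, beside 16.8% of all tested genes for single levels. They were the ratios of Nr5a1 to Fezf1, Isl1 to Tbx3 and Nkx2-1 to Nkx2-2, higher in NS-DADm mice, and of Sim1 to Nr5a1, lower. The ratios share genes and libraries, so they are a description and were not tested.

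**Figure D5:**
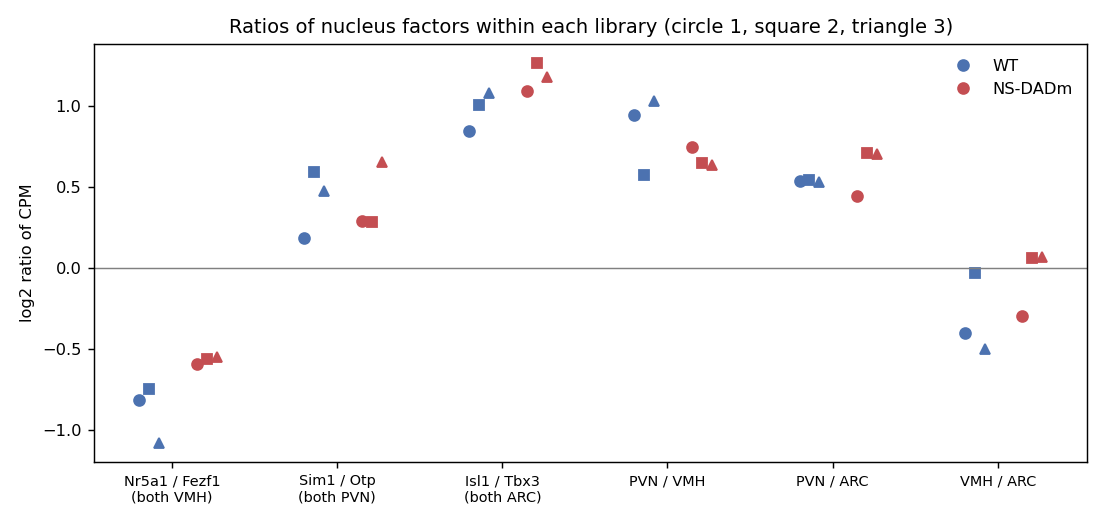
Log2 ratio of CPM within each library (vertical axis) for pairs of factors of 1 nucleus and for the means of paraventricular (PVN: Sim1, Otp, Pou3f2), ventromedial (VMH: Nr5a1, Fezf1) and arcuate (ARC: Isl1, Tbx3) factors, in WT (blue) and NS-DADm (red). The groups overlap for each ratio of nucleus means and for Sim1 to Otp. They are separate for Nr5a1 to Fezf1 and, by a narrow margin, for Isl1 to Tbx3.

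Other genes of the same nuclei, mostly peptide and receptor genes, were read from the same fit. The paraventricular list also held the transcription factors Arnt2 and Sim2, and the ventromedial list Nr0b1 and Sox14, which are counted again among the other factors below. Of 6 paraventricular genes, Trh, which encodes thyrotropin-releasing hormone, rose past the threshold, from 104 ± 5.3 to 124 ± 1.4 CPM (n = 3 each; edgeR, BH adjusted p = 0.042). Over all tested genes 0.654% passed. Of the 6, 5 had fitted values above 0 (median log2 0.11). Trh did not pass without WT 3, NS-DADm 1, NS-DADm 2 or NS-DADm 3 (log2 0.25 to 0.27; edgeR, BH adjusted p = 0.14, 0.086, 0.18 and 0.26), nor with the thalamus covariate (log2 0.10; BH adjusted p = 0.83). All 7 ventromedial genes had fitted values above 0 (median log2 0.13), against 51.6% of all tested genes. Of the 7, 0 passed in edgeR, DESeq2 or limma voom, nor had any an unadjusted p under 0.05 in edgeR. The 3 of these with the smallest p were the peptide genes Adcyap1 and Tac1 and the estrogen receptor gene Esr1, with log2 fold changes of 0.20, 0.089 and 0.13. The ventromedial sum was 156, 202 and 184 CPM in WT 1, 2 and 3, again lowest in WT 1, and 187, 206 and 205 CPM in NS-DADm libraries. Of 7 arcuate genes, 0 passed in the 3 tools and 3 had an unadjusted p under 0.05 in edgeR, 2 higher and 1 lower in NS-DADm mice. Such a p was found for 10.9% of all tested genes. Fitted values were above 0 for 5 of the 7 (median log2 0.22), with the feeding peptide gene Npy at 0.40, Ghrh at 0.57 and Cartpt at -0.13.

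Of 36 other transcription factors of hypothalamic regions, 34 passed the count filter and 0 passed the threshold with edgeR, DESeq2 or limma voom. Fitted values were above 0 for 23 and below for 11 (median log2 0.090), against 51.6% above 0 over all tested genes. An unadjusted p under 0.05 in edgeR was found for 2, beside 10.9% of all tested genes. Of the 34, 18 were lowest in WT 1 (52.9%, against 25.2% of all tested genes). Lhx9, a factor of lateral hypothalamus that the thalamus also makes, measured 21.02, 8.95 and 15.7 CPM across WT 1, 2 and 3, against 6.79, 7.06 and 7.80 CPM across NS-DADm 1, 2 and 3. It went with the thalamus markers rather than with the 10 factors, highest in WT 1 and lowest among WT mice in WT 2 (log2 -1.08 ± 0.33 SE; edgeR, BH adjusted p = 0.35). Without WT 2 Lhx9 passed the threshold (log2 -1.35; edgeR, BH adjusted p = 0.00015).

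Of the 34, 3 were higher and 1 lower in NS-DADm mice with no overlap between the groups, beside 16.8% of all tested genes in either direction. The 3 were Hmx2, Hmx3 and Dlx5, the last named after its values were seen, and the 1 was Lhx9. Hmx3, which with Hmx2 is a homeobox gene of arcuate and dorsomedial neurons, measured 4.50, 5.30 and 4.66 CPM across WT 1, 2 and 3, against 5.73, 6.08 and 5.90 CPM across NS-DADm 1, 2 and 3 (log2 0.29 ± 0.11 SE; edgeR, BH adjusted p = 0.36). Hmx2 had a log2 fold change of 0.31, as had Bsx, a factor of arcuate feeding neurons, while Dlx6 had 0.18 and Prdm12 0.22, none past the threshold. Dbx1 and Nkx2-3 were the 2 factors left out by the filter.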

How the data were processed

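The 10 genes, the gene lists and the tests were chosen with earlier results of these data known. The deposited tables, 1 for each mouse, list raw read counts by gene symbol. Per the submitters' processing notes, the authors aligned reads to mm10 with TopHat2 2.0.9 and counted them with HTSeq. No source used here gives the annotation or strand setting. The 5 rows of unassigned reads were left out. Counts were filtered with filterByExpr, scaled by TMM and tested with edgeR 4.0.16 (quasi-likelihood F test, robust) in R 4.3.3, without covariates, with BH adjustment over 15894 genes. Standard errors and unadjusted 95% intervals were computed from the F statistics. Mean log2 CPM of a list used tested members and a prior count of 2, and ratios within a library used none. RPKM used merged exons of GENCODE M21. Shared sequence was sought on the same strand only, with BLAST 2.17.0. Sequences of the genes are not reported here. Simulated data with 200 changed genes served to test the fit. Named genes were the 10 factors and, per list described, those called, or otherwise up to 6 (other factors) or 3 (other lists) with the smallest p. Gh was named for its level, Lhx8 and Nkx6-2 for calls in an alternative fit, and a few genes after their values were seen. Alternatives used DESeq2 1.42.0 and limma 3.58.1, other scaling and filters, a replicate block, a thalamus covariate and left-out libraries. Pairs of libraries of a group differed by 3.30 to 9.98 times the counting noise (chi-square per degree of freedom), so none was a duplicate.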

Additional observations from a re-analysis of the deposited data

How the results depend on the processing

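With 104 genes called in all, the count was 203 with no count filter, 282 with DESeq2, 8 with the thalamus covariate and 5 to 312 with single libraries left out. It was 584 without WT 1 and NS-DADm 2 together, an alternative chosen after seeing the data. Of the 10 factors, 0 to 1 were called with single libraries left out, the 1 being Nr5a1 without WT 2. Other hypothalamic factors called were 0 to 1 with single libraries left out, the 1 being Lhx9 without WT 2, and 2 without WT 1 and NS-DADm 2 together, Lhx8 and Nkx6-2. Same-numbered libraries deviated from their group means with correlations of 0.13, 0.087 and -0.035, and differently numbered ones with -0.12 to 0.057. The labels do not say that the numbers pair the mice, so the main fit did not pair them. Whether the numbers mark pairs cannot be told from these values. The replicate block called 409 genes, and 1 of the 10 factors, Nr5a1 (log2 0.46; edgeR, BH adjusted p = 0.046). Signs turned with the thalamus covariate for Nkx2-1 (-0.22), Sim1 (-0.47), Otp (-0.094), Pou3f2 (-0.15), Nr5a1 (-0.52), Fezf1 (-0.68) and Isl1 (-0.23), none past the threshold. Single libraries left out also turned values near 0, namely Nkx2-4 (-0.11 to 0.032, above 0 without WT 2 and, at 0.011, without NS-DADm 3), Pou3f2 (-0.0026 without WT 1, up to 0.14) and Tbx3 (-0.090 to 0.0031, above 0 without WT 2). Without WT 1 and NS-DADm 2 together, Pou3f2 (-0.0047) and Fezf1 (-0.033) turned. The cause of these changes was not tested. Per length of the longest transcript, levels were 9.92 RPKM for Isl1, 3.96 for Nkx2-2, 4.01 for Nr5a1, 3.28 for Sim1 and 2.37 for Tbx3.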

Other observations

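Markers of other tissues and cells near the hypothalamus, apart from thalamus and pituitary, were mostly without calls. Of mature oligodendrocyte markers 1 of 9, Ugt8a, fell past the threshold (log2 -0.52; edgeR, BH adjusted p = 0.0090), beside 0.654% of all tested genes. Fitted values were below 0 for 8 and above for 1 (median log2 -0.19), against 51.6% above 0 over all tested genes. Of the 9, 7 had an unadjusted p under 0.05 in edgeR, 6 lower and 1 higher in NS-DADm mice, beside 10.9% of all tested genes in either direction. DESeq2 called 2 and limma voom 1. The edgeR count was 0 to 3 with single libraries left out, namely 3, 1 and 0 for WT 1, 2 and 3 and 1, 0 and 0 for NS-DADm 1, 2 and 3. In edgeR 0 tested markers of habenula (6), striatum (8), cortex and amygdala (7), midbrain (4), tanycytes (6), ependymal cells (4) or choroid plexus (5) passed, and 1, 1, 2, 0, 1, 1 and 2 of them had an unadjusted p under 0.05. DESeq2 called 1 marker of cortex and amygdala and 1 of tanycytes, and limma voom called 0. Median log2 fold changes were -0.054 for habenula, -0.0067 for striatum, 0.00018 for cortex and amygdala, 0.011 for midbrain, -0.18 for tanycytes, 0.12 for ependymal cells and 0.44 for choroid plexus. Of the 7 cortex and amygdala markers 5 overlapped between the groups and 2 were lower in NS-DADm mice. One of these, Slc17a7, a vesicular glutamate transporter gene named after its values were seen, measured 34.0, 14.5 and 20.2 CPM across WT 1, 2 and 3, against 7.08, 1.81 and 5.78 CPM across NS-DADm 1, 2 and 3.

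Genes of the remaining hypothalamic regions had 0 calls in edgeR, DESeq2 and limma voom. In edgeR 1 suprachiasmatic, 2 lateral and 0 mammillary genes had an unadjusted p under 0.05, beside 10.9% of all tested genes. They were Vipr2 (log2 -0.46; edgeR, BH adjusted p = 0.13) of the suprachiasmatic list, and Qrfp (log2 0.75; edgeR, BH adjusted p = 0.081) and Lhx9 of the lateral list. Of 7 suprachiasmatic genes 4 had fitted values above 0 (median log2 0.0045), of 4 lateral hypothalamic genes 2 (median log2 0.035) and of 6 mammillary and posterior genes 5 (median log2 0.12). The mammillary sum was 65.7, 92.1 and 77.4 CPM in WT 1, 2 and 3, lowest in WT 1 like the 10 factors, and 79.7, 96.0 and 94.3 CPM in NS-DADm 1, 2 and 3.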
